A study of Rattus norvegicus with 12 samples.

Results

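Atp1b1, Atp1b2, Fxyd1 and Scn4b are accessory subunits of the sodium pump and of the cardiac sodium channel. These 4 genes were taken by symbol from the 32545 genes of the table, and all 4 were among the 13910 genes that passed the filter on low values (a mean FPKM, fragments per kilobase of gene length scaled to library size, of at least 0.5). They were chosen by function, with their measured FPKM and group differences in these libraries known, so their own values, differences and SEs are given as a description, without p-values. The animals were Sprague–Dawley (SD) rats. Volume overload (VO) was produced at postnatal day 1 by a fistula between the abdominal aorta and the inferior vena cava, and the controls had a sham operation on the same day. Free wall myocardium of the left (LV) and the right ventricle (RV) was sequenced at postnatal day 7. Each ventricle had 3 libraries from sham-operated rats (sham LV, sham RV) and 3 from rats with VO (VO LV, VO RV). All groups thus went through neonatal surgery, and whole wall tissue holds vessel, connective tissue and blood cells beside cardiomyocytes. The labels do not say whether the libraries of a group came from separate rats, or whether an LV and an RV library came from the same rat, so p-values measure the spread between these samples only.

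The sodium pump moves sodium out of the cell and potassium into it against their gradients. A catalytic alpha subunit does the transport, a beta subunit carries the alpha subunit to the cell surface, and a small FXYD protein tunes the affinity of the pump. In the heart, the voltage-gated sodium channel opens the action potential, its beta subunits adjust the gating and placement of the pore, and the sodium that enters is removed by the pump and shared with the sodium-calcium exchanger.

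Atp1b1 (ENSRNOG00000002934), the main beta subunit of heart and many other tissues, lies at chr13:82737159-82758004 on the minus strand as the deposited table lists it. The 3′ end of Atp1b1 overlaps Nme7, a gene on the plus strand, by 185 bases. Nme7 had a mean of 5.07 FPKM (3.72 to 7.92 over the libraries), and the strand setting of the counting is not given in the sources used here. Atp1b2 (ENSRNOG00000011227), a beta subunit best known from glia, lies at chr10:56205625-56211891 on the minus strand. Fxyd1 (ENSRNOG00000021079) encodes phospholemman, the FXYD protein of heart muscle whose phosphorylation relieves its brake on the pump. Fxyd1 lies at chr1:89484199-89488223 on the minus strand. Its neighbour Fxyd7 is 211 bases away on the same strand, and Fxyd5 and Fxyd3 are within 20 kb. Scn4b (ENSRNOG00000026679), a beta subunit bound covalently to the pore of the sodium channel, lies at chr8:49441106-49456279 on the plus strand, 13417 bases from the related gene Scn2b. The annotated lengths behind the FPKM were 2664 bases for Atp1b1, 3009 for Atp1b2, 533 for Fxyd1 and 4272 for Scn4b.

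Start regions of 300 bases were found for Atp1b2, Fxyd1 and Scn4b, 3 of the 4 genes, in RefSeq for the GRCr8 assembly. Their GC content was 60.3% at Atp1b2 (chr10:54823659-54823958), 65.3% at Fxyd1 (chr1:95418531-95418830) and 70% at Scn4b (chr8:54343623-54343922). The median of 33469 such regions was 51.7%. The stretches shown here are those that hold a searched TATA or GC box on either strand, with 12 bases on each side and the match in capitals, read on the strand of the gene. The TATA box TATAAA stands in 14.2% of all start regions, and the GC box GGGCGG in 33.1%, each counted on either strand.
Atp1b2, TATA box, 52 bases before the start: agagtcacagagTATAAAgactgtgcgcag
Atp1b2, GC box, 170 bases before the start: agacgcaccaggGGGCGGgtccaattcctc
Atp1b2, GC box, 78 bases before the start: tgggtgggaaggGGGCGGacacccttagag
Fxyd1, GC box on the opposite strand, 115 bases before the start: ctgggctgggggCCGCCCcctggcccccct
The CCAAT box, in 37.5% of all start regions, stood on the same strand of Atp1b2 162 bases before the start, just after the more distant GC box, and on the opposite strand of Atp1b2 at 5 bases after the start. In these 3 windows there was no match to the motif of the GATA factors (AGATAA, in 11.6% of all start regions), the core motif of nuclear receptors (AGGTCA, 16.2%), the TEAD motif (GGAATG, 14.2%), the E-box (CACGTG, 6.42%) or the MEF2 motif (3.29%). These matches are a description of letters and say nothing of binding.

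Per length, Fxyd1 was the most abundant of the 4 transcripts, followed by Atp1b1, Atp1b2 and Scn4b, and no library departed from this order. The means over the 12 libraries were 416 FPKM for Fxyd1, 80.6 for Atp1b1, 13.0 for Atp1b2 and 3.51 for Scn4b. By mean FPKM they ranked 182, 873, 5021 and 9777 among the tested genes. The libraries held 14121713 to 16871371 reads on genes, as recovered from the FPKM and gene lengths. The reads on a member in a library ranged from 2293 to 4059 for Fxyd1, from 2415 to 4870 for Atp1b1, from 479 to 802 for Atp1b2 and from 77 to 523 for Scn4b. Counting error alone, as the SD of a Poisson count, was thus 2.03% to 1.43% for Atp1b1 but 11.4% to 4.37% for Scn4b, from the library with fewest reads to that with most.

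Cardiomyocyte markers were high in all libraries (9 of 9 detected, summed level 18254 to 29027 FPKM), which matches the labelled tissue. Of the 12 conduction system markers, 9 had a mean of at least 0.5 FPKM, Isl1, which marks the sinus node, was under 0.5 FPKM in all libraries, and the summed level was 47.1 to 66.6 FPKM. Of the 10 nerve and glia markers, 7 had a mean of at least 0.5 FPKM, Th, which marks sympathetic nerve, was under 0.5 FPKM in all libraries, and the sum was 9.18 to 18.9 FPKM. Atrial markers stood apart in 2 libraries. Sln, an atrial regulator of the calcium pump, was at 388 FPKM in VO RV 2 and 97.7 FPKM in sham RV 1, with 0 to 0.678 FPKM in the other 10 libraries, and the sum of the 6 atrial markers spanned 212 to 1070 FPKM in sham RV, 250 to 4580 FPKM in VO RV, 706 to 1156 FPKM in sham LV and 893 to 1729 FPKM in VO LV. Values of the members and counts of calls without these 2 libraries are given further on, as are member calls with the atrial markers as a covariate. The part of atrial tissue in the results was not tested beyond these fits.

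Atp1b1 was the member whose level was lowest in sham LV and differed most between the sham ventricles. Its level was 59.0, 56.4 and 69.8 FPKM in sham LV 1 to 3 and 88.2, 89.8 and 100.4 FPKM in sham RV 1 to 3. After VO it was 85.6, 81.2 and 107 FPKM in VO LV 1 to 3 and 84.5, 83.7 and 61.5 FPKM in VO RV 1 to 3. The sham groups did not overlap, the VO LV libraries lay above all sham LV libraries, and the VO RV libraries lay below all sham RV libraries. Group means were 92.8 ± 6.63 FPKM in sham RV, 91.3 ± 13.9 in VO LV, 76.6 ± 13.0 in VO RV and 61.7 ± 7.09 in sham LV (SD, n = 3). Each neighbouring pair in this order had overlapping libraries.

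**Figure D1:**
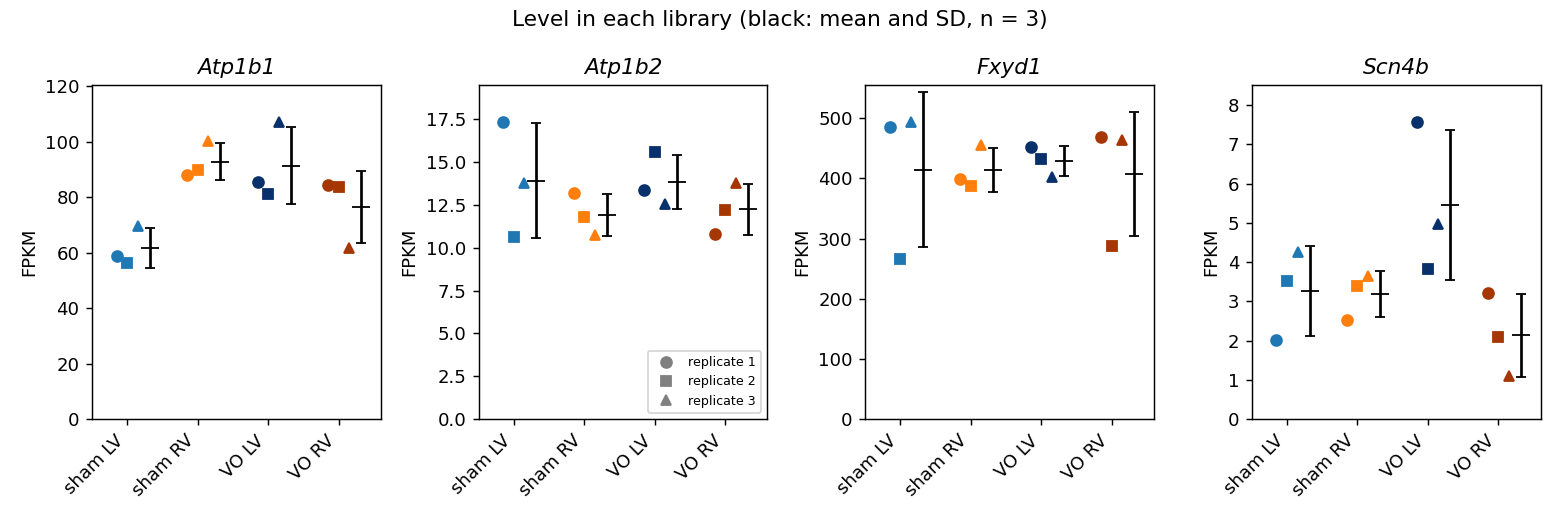
Level of the 4 members in FPKM (linear axes from 0) in each library by group, with the group mean and SD in black (n = 3). The sham LV libraries of Atp1b1 (56.4 to 69.8 FPKM) sit below those of sham RV (88.2 to 100.4) and VO LV (81.2 to 107), and 1 low library widens Fxyd1 in sham LV (265 FPKM) and in VO RV (288 FPKM).

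The log2 fold change of Atp1b1 was −0.59 (SE 0.15) for sham LV against sham RV, 0.56 (SE 0.15) for VO against sham in the LV, and −0.29 (SE 0.15) for VO against sham in the RV. Between the overloaded ventricles, VO LV against VO RV, the log2 fold change was 0.26 (SE 0.15), with overlapping libraries. Without VO RV 3, the log2 fold change was −0.14 for VO against sham in the RV and 0.11 for VO LV against VO RV. The LV response minus the RV response was 0.84 (SE 0.21) on the log2 scale. The sham comparison and the 2 responses share the sham libraries, so these values are not independent of each other.

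Atp1b2 had similar means in all groups. Its level was 17.3, 10.6 and 13.8 FPKM in sham LV 1 to 3 and 13.2, 11.8 and 10.7 FPKM in sham RV 1 to 3. After VO it was 13.4, 15.6 and 12.5 FPKM in the LV and 10.8, 12.2 and 13.8 FPKM in the RV. All groups overlapped, and the widest spread, 10.6 to 17.3 FPKM, was within sham LV. Means were 13.9 ± 3.37 FPKM in sham LV, 13.8 ± 1.56 in VO LV, 12.2 ± 1.49 in VO RV and 11.9 ± 1.24 in sham RV (SD, n = 3), and no neighbours in this order differed beyond their spread. Log2 fold changes were 0.19 for sham LV against sham RV, 0.02 and 0.04 for VO against sham in the LV and RV, 0.17 for VO LV against VO RV (SE 0.16 each), and −0.03 (SE 0.23) for the LV response minus the RV response. The sign depended on the library left out for the response of the LV (−0.16 to 0.18), for that of the RV (−0.04 to 0.12) and for their difference (−0.20 to 0.14). The sham difference was 0.03 without sham LV 1 and 0.37 without sham LV 2. VO LV against VO RV was 0.08 without VO LV 2 and 0.25 without VO RV 3.

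Since FPKM is per length, the beta subunits can be set side by side within a library. Atp1b1 was 3.40 to 5.32 times Atp1b2 in sham LV and 6.69 to 9.37 times Atp1b2 in sham RV, with no overlap, while the VO LV libraries spanned 5.22 to 8.54 and the VO RV libraries 4.47 to 7.83. A further beta subunit, Atp1b3, averaged 51.0 ± 5.48 FPKM in sham LV, 46.0 ± 3.98 in VO RV, 43.9 ± 4.43 in VO LV and 39.9 ± 2.52 in sham RV (SD, n = 3). Its differences were not called in any comparison (adjusted p = 0.079 for sham LV against sham RV, limma). Of the summed FPKM of these beta subunits, Atp1b1 made up 48.7% ± 4.29 in sham LV, 61.1% ± 2.28 in VO LV, 64.1% ± 1.59 in sham RV and 56.6% ± 6.66 in VO RV (SD, n = 3). In sham LV the share of Atp1b1 was below that in every library of sham RV and VO LV, while VO RV 3 (48.9%) lay within the sham LV range.

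**Figure D2:**
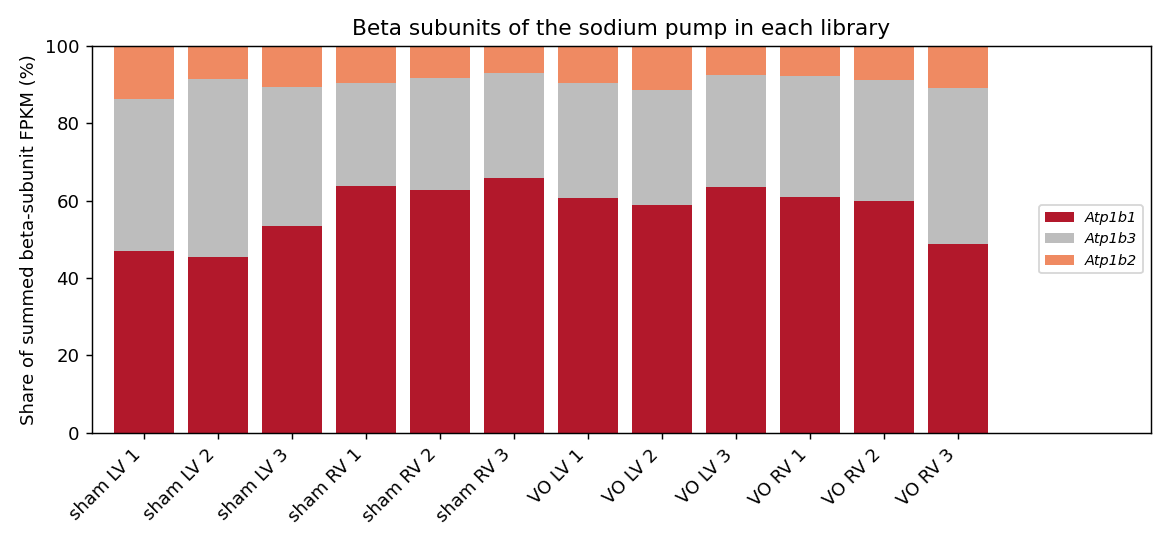
Share of the summed FPKM of Atp1b1, Atp1b2 and Atp1b3 taken by each beta subunit, as stacked bars in percent for each of the 12 libraries. Atp1b1 holds 45.4% to 53.5% in sham LV and 62.8% to 65.9% in sham RV, and Atp1b2 holds 7.03% to 13.8% over all libraries.

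Fxyd1 showed similar group means but wide spread in 2 groups. Its level was 485, 265 and 494 FPKM in sham LV 1 to 3 and 398, 388 and 455 FPKM in sham RV 1 to 3. After VO it was 452, 432 and 403 FPKM in the LV and 469, 288 and 463 FPKM in the RV. The second replicates of sham LV and VO RV were far below the rest, and all groups overlapped. Means were 429 ± 25.0 FPKM in VO LV, 415 ± 129 in sham LV, 414 ± 36.0 in sham RV and 407 ± 103 in VO RV (SD, n = 3), with no neighbours apart beyond their spread. Log2 fold changes were −0.05 for sham LV against sham RV, 0.10 and −0.05 for VO against sham in the LV and RV, 0.11 for VO LV against VO RV (SE 0.24 each), and 0.16 (SE 0.34) for the LV response minus the RV response. Without sham LV 2 the sign turned in the sham comparison (0.24), in the VO response of the LV (−0.19) and in the difference of the responses (−0.14). Without VO RV 2 it turned in the VO response of the RV (0.18) and in VO LV against VO RV (−0.12). Fxyd1 made up 72.4% to 85.3% of the summed FPKM of the FXYD genes Fxyd1 to Fxyd7.

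The low libraries of Fxyd1 were also low in mitochondrial transcripts. Genes of the mitochondrial genome took 22.2% of the summed FPKM in sham LV 2 and 27.0% in VO RV 2, the lowest and second lowest share of the 12 libraries. The highest levels of Fxyd1, in sham LV 3 and sham LV 1, were in the libraries with the highest shares, 36.1% and 38.9%. With each library scaled to the FPKM outside the mitochondrial genome, the log2 fold changes of Fxyd1 were −0.15, 0.15, −0.09, 0.08 and 0.24 in the same order, each with the sign it had before. The part of the mitochondrial share in the level of Fxyd1 was not tested.

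The transcripts of long and short genes also shifted between libraries. The median log2 deviation of the 1413 genes of at least 5000 bases, minus that of the 4232 genes of at most 1500 bases, was −0.11, −0.19 and −0.10 in sham LV 1 to 3 and 0.23, 0.12 and −0.03 in sham RV 1 to 3. It was −0.02, 0.03 and 0.10 in VO LV 1 to 3 and −0.13, 0.15 and −0.12 in VO RV 1 to 3. Long genes were thus low beside short ones in all libraries of sham LV, the group with the lowest mean of Atp1b1. They were also low in VO RV 1 and VO RV 3, where Atp1b1 was at 84.5 and 61.5 FPKM. The deviation was slightly below 0 in sham RV 3 and VO LV 1 too, where Atp1b1 was at 100.4 and 85.6 FPKM. With the trend on gene length removed from each library, the log2 fold change of Atp1b1 was −0.56 for sham LV against sham RV, 0.53 and −0.27 for the LV and RV responses, and 0.80 for their difference, with 0 members called. The part of gene length in these differences was not tested further.

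**Figure D3:**
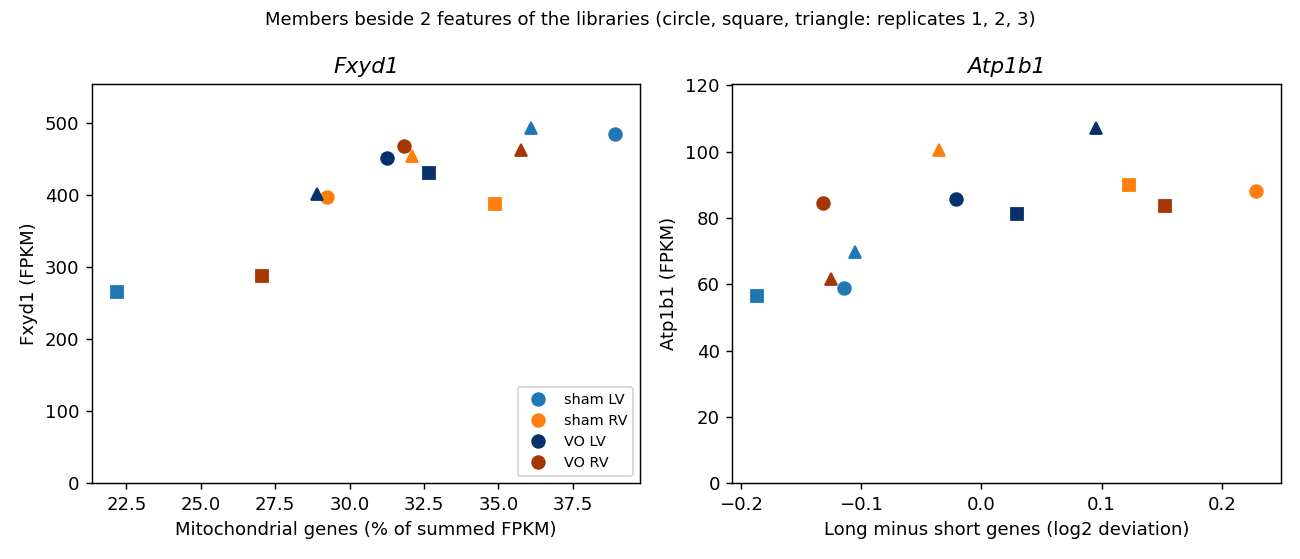
Left, Fxyd1 in FPKM against the percentage of summed FPKM from mitochondrial genes. Right, Atp1b1 in FPKM against the median log2 deviation of long minus short genes. Each point is a library, coloured by group and shaped by replicate. Fxyd1 is lowest (265 and 288 FPKM) in the libraries with mitochondrial shares of 22.2% and 27.0%, and Atp1b1 is lowest (56.4 FPKM) where the long-gene deviation is lowest (−0.19).

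Scn4b had the lowest level and the widest spread of the members. Its level was 2.01, 3.52 and 4.26 FPKM in sham LV 1 to 3 and 2.54, 3.40 and 3.66 FPKM in sham RV 1 to 3. After VO it was 7.57, 3.82 and 4.98 FPKM in the LV and 3.21, 2.09 and 1.10 FPKM in the RV. The VO LV libraries lay above all VO RV libraries, and VO overlapped sham in each ventricle. Means were 5.46 ± 1.92 FPKM in VO LV, 3.26 ± 1.15 in sham LV, 3.20 ± 0.585 in sham RV and 2.13 ± 1.06 in VO RV (SD, n = 3), and each neighbouring pair in this order overlapped. The highest library was 6.90 times the lowest, against 1.90 times for Atp1b1, 1.64 for Atp1b2 and 1.86 for Fxyd1.

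Log2 fold changes of Scn4b were −0.01 for sham LV against sham RV, 0.67 and −0.56 for VO against sham in the LV and RV, 1.21 for VO LV against VO RV (SE 0.33 each), and 1.23 (SE 0.47) for the LV response minus the RV response. The highest library, VO LV 1, held 523 reads of Scn4b and the lowest, VO RV 3, held 77. Without VO RV 3 the response of the RV was −0.24 and VO LV against VO RV was 0.89. Without sham LV 1 the response of the LV was 0.40. The sign of the sham difference depended on the library left out, from −0.21 without sham LV 3 to 0.26 without sham LV 1. Because whole tissue was sequenced, fewer cells of a type and less RNA per cell cannot be told apart for any of these differences.

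**Figure D4:**
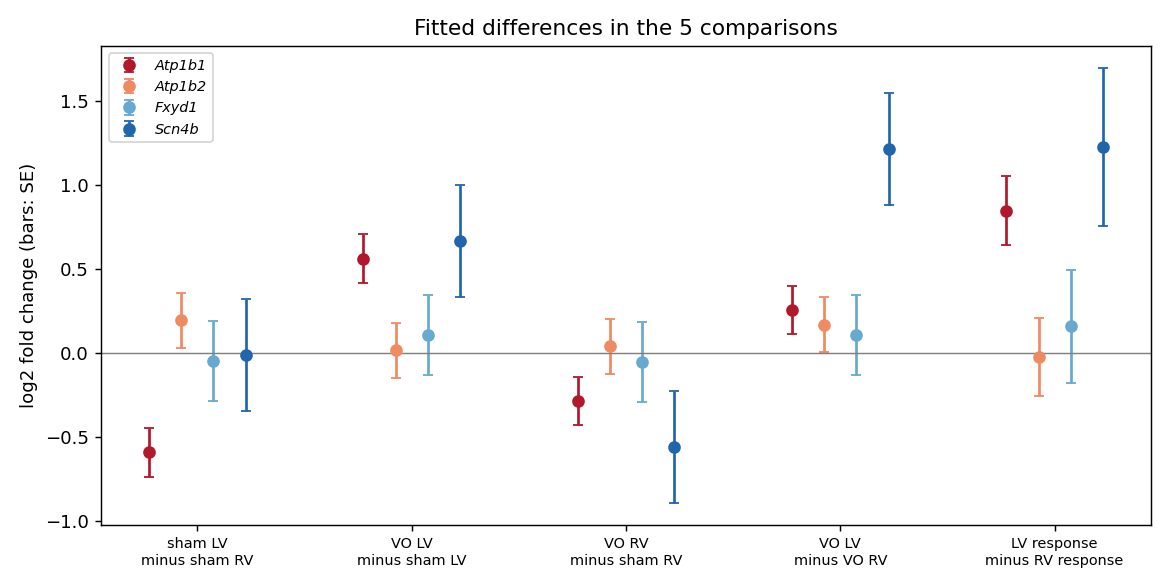
Log2 fold change with SE of the 4 members in the 5 comparisons of the 4-group limma model. Atp1b1 is at −0.59 for sham LV against sham RV and at 0.84 for the difference of the responses, Scn4b is at 1.21 between the overloaded ventricles and at 1.23 for the difference of the responses, and Atp1b2 and Fxyd1 lie between −0.05 and 0.19 throughout.

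A gene was called as a DEG when its limma p, adjusted over all tested genes by the Benjamini-Hochberg method, was under 0.05 and its fold change was over 1.3. For sham LV against sham RV, 1 of the 4 members was called (Atp1b1, lower), where 3.85% of all tested genes were called and 2.35% were called as lower. The same 1 member met an unadjusted p of less than 0.05 together with the fold threshold, as did 17.8% of all genes. The groups did not overlap for 1 member (Atp1b1, lower), as for 32.2% of all tested genes, and 16.6% had sham LV lower. For VO against sham in the LV, limma called 0 members beside 0.0935% of all genes, and 1 member (Atp1b1) passed by the unadjusted p, as did 15.7% of all genes. In that comparison 1 member did not overlap (Atp1b1, higher), as for 32.4% of all genes, 16.7% in that direction. For VO against sham in the RV, limma called 0 members, with 0 by the unadjusted p, beside 0% and 4.91% of all genes, and 1 member did not overlap (Atp1b1, lower), as for 12.5% of all genes, 6.87% in that direction. For VO LV against VO RV, limma called 0 members beside 0.00719% of all genes, with 1 (Scn4b) by the unadjusted p beside 7.4%, and 1 did not overlap (Scn4b, higher), as for 16.1% of all genes, 8.45% in that direction.

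For the difference of the responses, 1 member was called (Atp1b1, higher), beside 4.19% of all genes and 3.46% as higher, and 2 members (Atp1b1 and Scn4b) by the unadjusted p, beside 23.1%. Atp1b1 lay above sham LV in all VO LV libraries and below sham RV in all VO RV libraries, a pattern that 3.37% of all tested genes shared. The median log2 fold change of the 4 members was −0.03, 0.33, −0.17, 0.21 and 0.50 in the order of the comparisons above, and that of all tested genes was 0.01, −0.02, 0.00, 0.01 and −0.04. Since the members were chosen with these results known, nothing about the group follows from these counts.

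The calls of Atp1b1 depended on single libraries. The call between the sham ventricles was lost in 8 of the 12 fits with a library left out (sham LV 1, sham LV 2, each sham RV library, VO LV 1, VO LV 2 or VO RV 1), in which the log2 fold change was between −0.63 and −0.53. The call of the difference of the responses was lost in 9 of the 12 (all but those without sham LV 3, VO RV 1 or VO RV 2), with values of 0.69 to 0.92. Without VO RV 3, Atp1b1 was also called in the response of the LV. Leaving out sham RV 1 and VO RV 2, the libraries with raised atrial markers, gave Atp1b1 −0.63, 0.56, −0.39, 0.33 and 0.95 in the 5 comparisons, with 0 members called. Without the same libraries Scn4b was at −0.15, 0.67, −0.73, 1.24 and 1.39, Fxyd1 at −0.08, 0.10, 0.15, −0.12 and −0.04, and Atp1b2 at 0.27, 0.02, 0.11, 0.17 and −0.10.

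**Figure D5:**
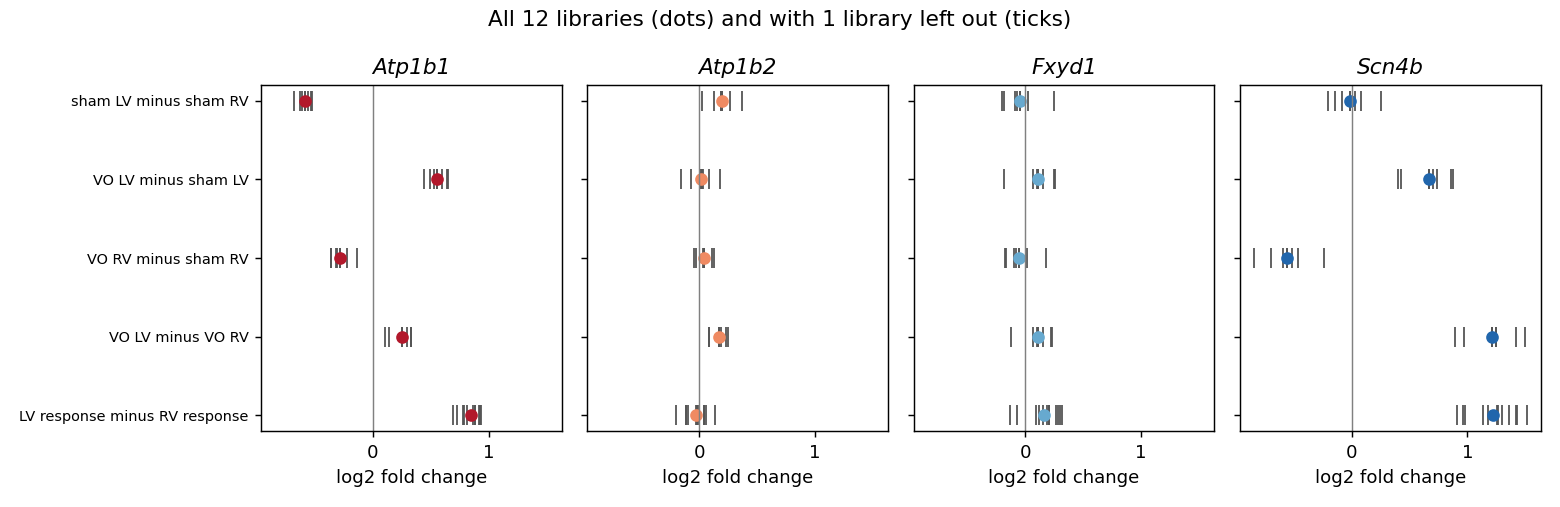
Log2 fold change of the 4 members in the 5 comparisons, with all 12 libraries (dots) and with each library left out in turn (vertical ticks), on 1 shared axis. For Atp1b1 the ticks span −0.68 to −0.53 in the sham comparison and 0.69 to 0.94 in the difference of the responses, and for Fxyd1 the ticks fall on either side of 0 in every comparison.

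Summed markers of non-muscle cells also differed between groups. The sum of the 6 endothelial markers in the table was 486 to 535 FPKM in sham LV, 381 to 424 in VO LV, 337 to 372 in sham RV and 351 to 442 in VO RV. Thus the endothelial sum was highest in sham LV, the group in which Atp1b1 was lowest. Macrophage markers (8 of 8 detected) summed to 125 to 138 FPKM in sham LV, 95.9 to 127 in VO LV, 94.1 to 104 in sham RV and 99.7 to 149 in VO RV. Red blood cell markers (5 of 7 in the table) summed to 2175 to 4871 FPKM in sham LV, 1698 to 2481 in VO LV, 1160 to 2296 in sham RV and 1128 to 2505 in VO RV. Fibroblast markers (8 of 8) went the other way between the ventricles, with 2594 to 2789 FPKM in sham LV, 2063 to 2543 in VO LV, 2770 to 3640 in sham RV and 2533 to 4935 in VO RV. Smooth muscle and pericyte markers (8 of 8) summed to 540 to 704 FPKM in sham LV, 510 to 640 in VO LV, 469 to 516 in sham RV and 470 to 638 in VO RV. The sum of the 9 cardiomyocyte markers was 25545 to 26996 FPKM in sham LV, 26265 to 29027 in VO LV, 22079 to 25828 in sham RV and 18254 to 26132 in VO RV. The part of these cells in the difference of Atp1b1 was not tested.

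Lists of 69 other genes of sodium handling, in 4 groups, gave the setting of the members, and 55 of these genes were tested. In the sham comparison 2 of the 55 were called higher in the LV and 9 lower (20% called, beside 3.85% of all tested genes). In the difference of the responses 11 were called higher and 0 lower (20%, beside 4.19%). In the responses of the LV and of the RV and between VO LV and VO RV limma called 0. By the unadjusted p, 25, 19, 10, 9 and 28 of the 55 passed in the 5 comparisons (45.5%, 34.5%, 18.2%, 16.4% and 50.9%), beside 17.8%, 15.7%, 4.91%, 7.4% and 23.1% of all tested genes. The lists were written with results of these data known, so nothing particular to them follows from these shares. Without sham RV 1 and VO RV 2, 0 of the 55 were called in any comparison, in a fit that called 7 of all 13910 genes in the sham comparison and 2 in the difference of the responses. The 11 called in each of these comparisons kept their sign there, with log2 fold changes in the sham comparison of −1.63 for Slc8a1 and −1.56 for Kcnj2, for example. With the replicate number as a block, 0 of the 55 were called as well, in a fit that called 3 of all genes in the sham comparison and 1 in the difference of the responses. With a library left out in turn, each gene named here as called in the sham comparison was called in 2 to 7 of the 12 fits, and with the trend on gene length removed Fxyd6, Slc20a2 and Ank3 were no longer called there. Of the 10 tested genes of the pump itself, 1 was called higher and 1 lower in the sham comparison. Fxyd6, an FXYD protein best known from brain, was at 64.2 to 74.0 FPKM in sham LV and 49.1 to 55.1 FPKM in sham RV (log2 fold change 0.41, SE 0.08, adjusted p = 0.0361), opposite in direction to Atp1b1. Of the other FXYD genes, the mean in sham LV was 15.1 FPKM for Fxyd5, 6.20 for Fxyd7, 5.43 for Fxyd2 and 2.45 for Fxyd3, each far below Fxyd1. Of the 8 tested genes of voltage-gated sodium channels other than Scn4b, 0 were called in any comparison (limma, with 3, 0, 2, 2 and 2 by the unadjusted p in the 5 comparisons). Scn3b, another channel beta subunit, averaged 2.79 ± 0.552 FPKM in sham LV, 2.51 ± 0.291 in VO LV, 2.12 ± 0.254 in VO RV and 1.73 ± 0.45 in sham RV (SD, n = 3), and VO overlapped sham in each ventricle.

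Of the 14 tested sodium exchangers and cotransporters, 0 were called higher and 3 lower in the LV of the sham comparison. Slc8a1, the sodium-calcium exchanger of the cardiomyocyte, was at 11.3 to 18.5 FPKM in sham LV and 39.3 to 72.6 FPKM in sham RV (log2 fold change −1.87, SE 0.38, adjusted p = 0.0358). It was at 37.0 to 72.5 FPKM in VO LV and 15.5 to 43.3 FPKM in VO RV. Slc20a2, a sodium-phosphate cotransporter (−0.54, adjusted p = 0.0423), and Slc4a4, a sodium-bicarbonate cotransporter (−0.92, adjusted p = 0.0361), had the same direction as Atp1b1. The median log2 fold change of this list was −0.13 in the sham comparison, beside 0.01 for all tested genes.

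Of the 23 tested partners, which are genes for scaffold, kinase, junction and potassium channel proteins that work beside the pump and sodium channel, 1 was called higher and 5 lower in sham LV. Kcnj2 and Kcnj12, inward rectifier potassium channels that hold the resting potential, had log2 fold changes of −1.66 (adjusted p = 0.0319) and −1.24 (adjusted p = 0.0325). Kcnj2 was at 1.78 to 2.45 FPKM in sham LV and 6.61 to 9.16 FPKM in sham RV. Ank3, the ankyrin that anchors sodium channels at the membrane (−0.65, adjusted p = 0.0431), Cxadr, a junction protein (−1.38, adjusted p = 0.0435), and Ank2, an ankyrin of the pump and exchanger (−1.21, adjusted p = 0.0459), were also lower in sham LV. Sgk1, a kinase that raises sodium transport, was not among the 5 with the smallest adjusted p and is named because it alone of the partners was called higher in sham LV (0.46, adjusted p = 0.0493). The median log2 fold change of the partners was −0.28 in the sham comparison and 0.37 in the difference of the responses, beside 0.01 and −0.04 for all tested genes.

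The genes whose pattern was most like that of each member were sought by Pearson's r of log2 values over the 12 libraries, which share depth and preparation, so r is given as a description. For Atp1b1 they were Gpd1l (r = 0.978), Dnaja4 (0.971), Asph (0.971), Habp4 (0.970) and Ptpn11 (0.966). For Fxyd1 they were Nfyc (0.970), Atp5g2 (0.962), Gng5 (0.957), Mrps36 (0.955) and Atp6v1f (0.934). For Scn4b the first was Fam53b (0.927) and the second Smyd4 (0.910). For Atp1b2 the highest values were lower, with AC130624.1 at 0.886 and Fli1 at 0.854. Between the members themselves r was 0.47 for Atp1b1 with Scn4b, 0.46 for Atp1b2 with Fxyd1, 0.11 for Atp1b1 with Fxyd1, 0.07 for Fxyd1 with Scn4b, −0.19 for Atp1b2 with Scn4b and −0.33 for Atp1b1 with Atp1b2. None of the 4 was thus close to another over these libraries.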

How the data were processed

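RNA was extracted from frozen free wall myocardium, and libraries were made with the NEBNext Ultra RNA kit. The strand setting of the counting is not given in the sources used here. According to the submitters' processing notes and the study's methods, the authors aligned paired-end reads with HISAT2 2.0.5, counted reads per gene with featureCounts 1.5.0-p3 and computed the deposited FPKM from these counts and gene lengths. The genome build is not given in the sources used here. The reads on each gene were recovered from FPKM and length, and of those below 200 reads 100% came out whole (tolerance 0.02).

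Each library's FPKM was scaled by the median-ratio method (factors 0.996 to 1.00) and expressed as log2 after adding 0.5, so fold changes are on the log2(FPKM + 0.5) scale, which understates those of low genes. The genes averaging 0.5 FPKM or more were fitted as 1 model of 4 groups (limma 3.58.1 under R 4.3.3, moderated with a mean-variance trend), with Benjamini-Hochberg adjustment over all tested genes. The study's count test was not run on the FPKM, and limma voom on the recovered reads was an alternative. The procedure was tested on simulated data. The median-ratio scaling, pseudocount, filter, variance model, pairing, unit, atrial markers and each library were varied.

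The members and gene lists were chosen with earlier results of these data known. Genes named from the lists were up to 5 called per list and comparison with the smallest adjusted p, and pump or channel genes with a mean of at least 1 FPKM. Some genes selected in this way, and some markers, are not reported here. Start regions came from RefSeq, GRCr8, and were used for sequence only.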

Additional observations from a re-analysis of the deposited data

Results flagged for a closer look

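By the interaction term of the limma model, the response to VO was called different between the LV and the RV for 10 named genes. They come from the lists of sodium transport genes and their partners, which were written with results of these data known. None of the 10 was called in the response of the LV or of the RV alone. The interaction term shares its sham libraries with the sham comparison, so the calls of these 2 comparisons are not independent. Atp1b1 had a log2 difference of 0.84, which is a description and no test, since the gene was chosen with its group differences known. Among the exchangers and cotransporters it was 2.63 for Slc8a1 (adjusted p = 0.0317), 1.27 for Slc4a4 (adjusted p = 0.0329), 0.83 for Slc20a2 (adjusted p = 0.0329) and 0.80 for Slc12a7, a potassium-chloride cotransporter (adjusted p = 0.0312). Among the partners it was 2.43 for Kcnj2 (adjusted p = 0.0249), 2.07 for Kcnj12 (adjusted p = 0.0249), 2.08 for Cxadr (adjusted p = 0.0368), 0.92 for Ank3 (adjusted p = 0.041), 1.26 for Gja1, the main gap junction protein of ventricular muscle (adjusted p = 0.0456), and 1.69 for Ank2 (adjusted p = 0.0474). Ank2 is named beyond the 5 partners with the smallest adjusted p. In each case the LV response was the higher, as in the 3.46% of all tested genes that were called in that direction. With the trend on gene length removed, Slc12a7 (0.66), Gja1 (1.20), Ank3 (0.70) and Ank2 (1.45) were no longer called, and neither was Atp1b1 (0.80). With each library left out in turn, each of the 10 genes other than Atp1b1 was called in 3 to 6 of the 12 fits, and with the replicate block 0 were called, in a fit that called 1 of all 13910 genes. Without sham RV 1 and VO RV 2 together 0 were called, in a fit that called 2 of all genes, and the log2 differences kept their sign. They were 2.69 for Slc8a1, 2.31 for Kcnj2, 2.04 for Cxadr, 2.01 for Kcnj12, 1.74 for Ank2, 1.29 for Slc4a4, 1.23 for Gja1, 0.92 for Ank3, 0.78 for Slc20a2 and 0.72 for Slc12a7.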

How the results depend on the processing

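The sign of the log2 fold change of Atp1b1 was kept in all 5 comparisons under every alternative that gave a value (27, or 26 for the difference of the responses, which a separate fit of 6 libraries cannot give). The call of Atp1b1 was less stable. In the sham comparison, the number of members called was 0 in place of 1 with all genes above 0 tested, with the replicate block, with the atrial covariate, without sham RV 1 and VO RV 2, and with the gene-length trend removed. In the difference of the responses it was 0 in place of 1 with all genes above 0, with the replicate block, without sham RV 1 and VO RV 2, and with the gene-length trend removed. In the response of the LV it was 1 in place of 0 with array weights. The last 2 of these settings in each list, and the scaling to FPKM outside the mitochondrial genome, were chosen after seeing the data. With a library left out in turn, it ranged from 0 to 1 in each of these 3 comparisons. The cause of the lost calls was not tested. For the replicate block, the sham log2 fold change of Atp1b1 was −0.59 (SE 0.16). The labels do not say that a number pairs libraries, same-numbered deviations correlated at −0.22 to 0.12 with 2 of 12 pairs over 0.1, and in 4 of 12 comparisons of a library with another group the best match had the same number (sham LV 2 and sham LV 3, each in 2 comparisons). Fxyd1 moved beyond the replicate spread without sham LV 2, and its log2 fold changes over the fits with a library left out ranged from −0.20 to 0.24, −0.19 to 0.26 and −0.14 to 0.31 for the sham comparison, the response of the LV and the difference of the responses. In the same order Fxyd1 was at −0.23, 0.23 and 0.37 with the gene-length trend removed. With array weights it was at 0.14, −0.03 and −0.08. Over all tested genes, DEGs of the sham comparison numbered 536 (209 higher in the LV, 327 lower), 3 with the replicate block, 8 with all genes above 0, 1321 with array weights, 7 without sham RV 1 and VO RV 2, from 0 (without sham RV 1) to 870 (without VO RV 3) with a library left out in turn, 314 in the separate fit and 758 (139 higher, 619 lower) with the scaling to FPKM outside the mitochondrial genome. In the response of the LV they numbered 13, with 0 to 704 under the alternatives, and in the difference of the responses 583, with 0 to 1309. The other genes of sodium handling called ranged from 0 to 18, 0 to 12 and 0 to 16 in these comparisons. For Scn4b, 77 reads in a library carry a counting SD of 11.4%. The SD of its FPKM within a group was 35.2% of the mean, as the median over the groups.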
